A study of Homo sapiens with 8 samples.

Results

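Of 38314 transcripts probed in HEK293T cells, 6336 had both a higher average reactivity and a higher Gini index in cells depleted of TDP-43 than in control cells, while their strongest position stayed below 7 in both conditions. The value 7 is the highest that either table holds for a single position. The 6336 are 19.1% of the 33235 transcripts below that ceiling, and they are described here. Over all transcripts below the ceiling the average was higher in knockdown in 54.3% and the Gini index in 58.9%. The 6336 were chosen on the average, the Gini index and the maximum of the comparison of knockdown with control, so those values, and the standard deviation that follows from them closely, are given as a description without a test.

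Reactivity here is the degree to which a nucleotide is acylated at its ribose by NAI, a small probe that enters living cells. Flexible, unpaired nucleotides are marked readily, and nucleotides held in a helix or a protein contact are marked less. In a folded G-quadruplex the last guanine of each guanine run is known to be marked more than its neighbours. SHALiPE-seq reads the marks as stops of reverse transcription, and lithium in that reaction keeps RNA G-quadruplexes from stopping the enzyme by themselves. The average of a transcript tells how reactive its nucleotides were as a whole. The Gini index tells how unequally that reactivity was shared, from 0 for an even profile to 1 where few positions hold all of it. A profile in which every position is multiplied by the same factor keeps its Gini index, and its average, standard deviation and maximum change by that same factor. TDP-43 is an RNA- and DNA-binding protein of the nucleus with a role in splicing and mRNA stability. It prefers GU-rich RNA, and the title of the study names its binding to RNA G-quadruplexes.

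The study compared control HEK293T cells, whose genotype is labelled WT, with HEK293T cells labelled TDP-43 knockdown. HEK293T is an established human embryonic kidney line that carries the SV40 large T antigen. Each kind of cell was treated with 100 mM NAI or with 5% DMSO for 15 min at 37 °C, in 2 replicates each, which makes 8 libraries in 4 groups, and polyadenylated RNA was sequenced. How the knockdown was made was not found in the labels. The values analysed were 4 summaries per transcript and condition, namely the maximum, average, standard deviation and Gini index of reactivity, on a score whose scale is not stated. Each is a single combined value, so there is no replicate spread, no test against it, and the depth behind each value is unknown. The level of the TDP-43 transcript itself was not analysed here. Transcripts carry Ensembl identifiers that were not paired with gene names here, and their sequences were not used.

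The more reactive and more uneven transcripts combined a modest increase of the average with a larger increase of the spread, which the rule favours. Their median average reactivity was 0.185 in control cells and 0.222 after knockdown, and the middle 50% ran from 0.158 to 0.223 in control and from 0.185 to 0.270 in knockdown. Their median Gini index was 0.824 in control cells and 0.849 after knockdown. In control they stood close to all transcripts below the ceiling, whose median average was 0.189 and whose median Gini index was 0.815. The median log2 ratio of the average, knockdown over control, was 0.26, or 1.19-fold, and the median difference of the Gini index was 0.019. The largest difference of the Gini index among them was 0.138.

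**Figure D1:**
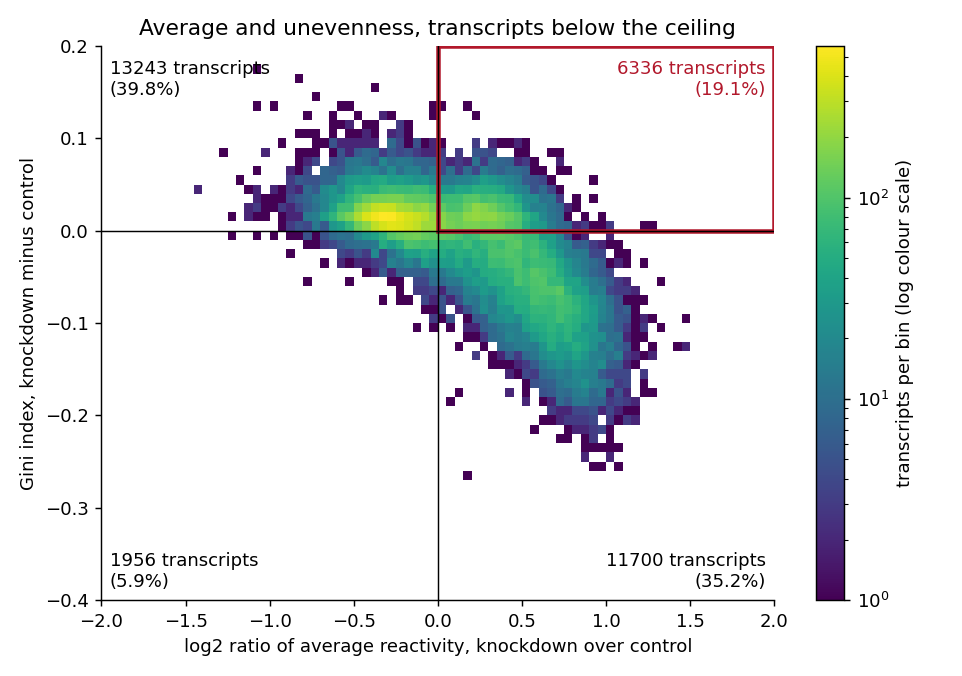
Log2 ratio of average reactivity, knockdown over control (horizontal), against the difference of the Gini index, knockdown minus control (vertical), for the 33235 transcripts below the ceiling, counted in bins on a log colour scale, with 2 transcripts outside the drawn range. The red frame holds the 6336 transcripts that were higher in both measures, and the other corners give the numbers of the other joint directions.

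Large increases of the average were rare among them. The average was at least 1.5-fold higher in 251 of the 6336 transcripts, or 3.96%, against 17.3% of all transcripts below the ceiling. It was at least 2-fold higher in 5 of them, against 0.978% of all. The 11700 transcripts that were more reactive but more even had the larger ratios, with a median log2 ratio of 0.57. The plot of average against Gini index shows this as a band that bends down at high ratios. Increases of the average and of the Gini index were almost unrelated in size across the 6336 transcripts (Spearman's rho 0.023, across transcripts of the same libraries). The rule keeps both differences above 0, so this value does not describe transcripts outside the 6336.

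Nearly every one of the 6336 transcripts had a wider spread of reactivity in knockdown. The median standard deviation was 0.38 in control cells and 0.506 after knockdown, a median log2 ratio of 0.39 or 1.31-fold. It was higher in knockdown in 6330 transcripts, against 59.8% of all transcripts below the ceiling and 92.4% of those more reactive and more even. This count is close to fixed by the rule, because a higher average together with a higher Gini index leaves little room for a lower standard deviation. The standard deviation was at least 1.5-fold higher in 958 transcripts, or 15.1%, against 5.66% of all. Its ratio exceeded that of the average in 6106 transcripts, or 96.4%, against 58.7% of all, so in these the coefficient of variation was higher in knockdown too. That count is also close to fixed by the rule, since a higher Gini index mostly goes with a higher coefficient of variation. In the other 230 the Gini index was higher and the coefficient of variation lower, and their Gini difference was small, with a median of 0.0013.

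The strongest position was also higher in most of them. The median maximum was 2.42 in control cells and 3.12 after knockdown, and the middle 50% moved from 1.97 to 2.94 in control up to 2.47 to 4.04 in knockdown. The maximum was higher in knockdown in 5847 transcripts, or 92.3% (95% Clopper-Pearson interval 91.6 to 92.9, which covers the counting of transcripts only). This compares with 66.9% of all transcripts below the ceiling and 74.5% of those more reactive and more even. Among all transcripts below the ceiling the share grew with the number of positions, as given below. The maximum was at least 1.5-fold higher in 1432 transcripts, or 22.6%, against 6.45% of all, and at least 2-fold higher in 234, against 0.827% of all. The median log2 ratio of the maximum was 0.36, or 1.29-fold, between the ratio of the average and that of the standard deviation.

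**Figure D2:**
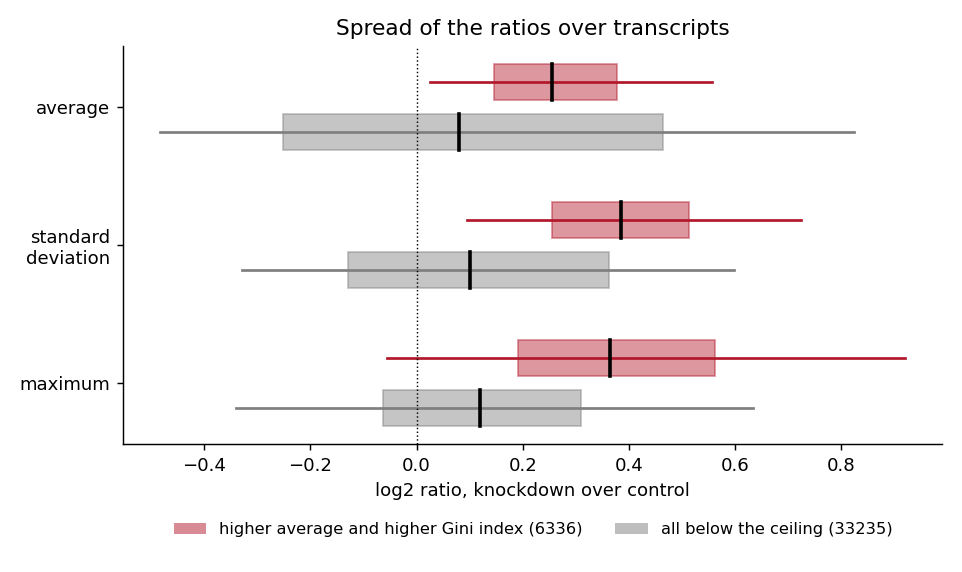
Log2 ratio of knockdown over control for the average, the standard deviation and the maximum. Boxes span the middle 50% of transcripts, the black bar is the median and the line runs from the 5th to the 95th percentile, in red for the 6336 transcripts with a higher average and a higher Gini index (medians 0.26, 0.39 and 0.36) and in grey for all 33235 below the ceiling (medians 0.08, 0.10 and 0.12).

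Set against the standard deviation, the maximum was higher about as often as in all transcripts below the ceiling. In 3126 of the 6336 transcripts, or 49.3%, the ratio of the maximum exceeded that of the standard deviation, against 52.1% of all transcripts below the ceiling. The strongest position stood a median of 5.80 standard deviations above the transcript's own average in control and 5.76 in knockdown. This distance was larger in knockdown in 50.8% of the 6336, against 51.5% of all. Across the 6336 transcripts the log2 ratio of the standard deviation followed that of the average with a Spearman's rho of 0.86, and that of the maximum with a rho of 0.68. The maximum followed the average less closely, with a rho of 0.51. These correlations run across transcripts that share libraries and scaling, and they describe the tables only.

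The 6336 transcripts fell into 3 patterns by how the strongest position moved with the average. In 4266, or 67.3%, the maximum had a larger ratio than the average, against 55% of all transcripts below the ceiling. Here the median maximum was 2.40 in control cells and 3.43 after knockdown, the average 0.184 and 0.218, and the median Gini difference 0.023. In 1581, or 25.0%, the maximum was higher but by no more than the average. These had the larger increase of the average, from a median of 0.193 to 0.243, and a smaller Gini difference of 0.014. Their maximum went from a median of 2.35 to 2.72.

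In the remaining pattern, 488 transcripts or 7.70% had a lower maximum in knockdown although average and Gini index were higher, and 1 further transcript had equal maxima. The median maximum of the 488 was 2.78 in control cells and 2.60 after knockdown, while their standard deviation was 0.390 in control cells and 0.445 after knockdown. Their strongest control position stood out further than in the other patterns, 6.68 standard deviations above the average in control and 5.36 in knockdown. The split favours such values, since it picks transcripts whose maximum was lower in knockdown. Their average differed little, with medians of 0.175 and 0.191. Unevenness was therefore higher in these transcripts without a higher peak.

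**Figure D3:**
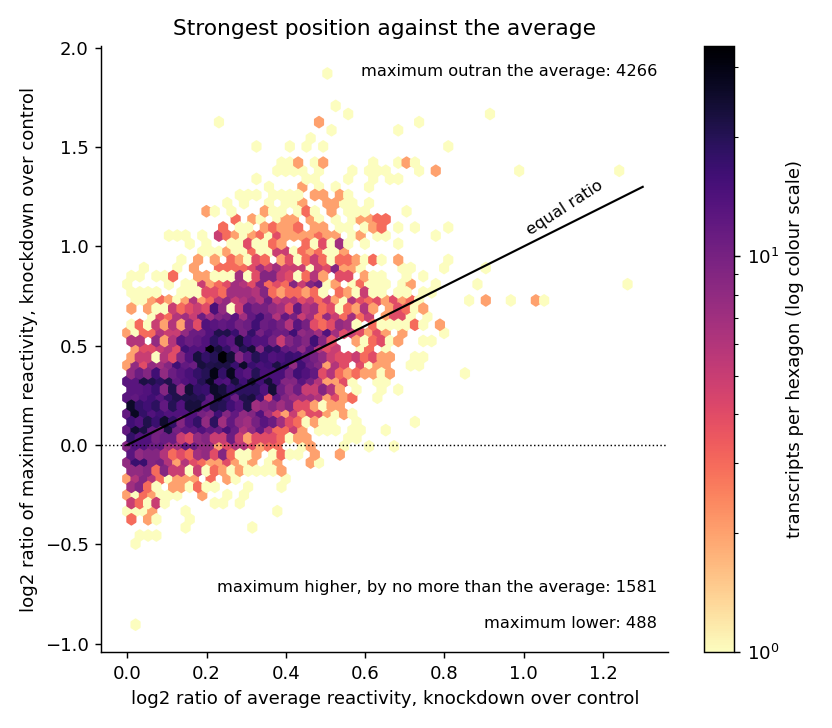
Log2 ratio of the maximum (vertical) against log2 ratio of the average (horizontal), knockdown over control, for the 6336 transcripts, counted in hexagons on a log colour scale. The solid line marks equal ratios: 4266 transcripts lie above it, 1581 lie on or below it with a higher maximum, and 488 lie below the dotted line of an unchanged maximum.

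In most transcripts the increase was larger than a single strongest position could carry. It could be held by fewer positions than in the transcripts that were more reactive and more even, where the median increase was larger. The number of positions in each average could be recovered from the deposited digits, with a median of 2300 for the 6336 transcripts and a middle 50% of 851 to 3998. Average times positions gives the summed reactivity of a transcript, and its difference between conditions had a median of 78.9 score units. The difference between the maxima of both conditions was a median of 0.835% of that summed increase, and at most 10% of it in 5971 transcripts, or 94.2%. In the 11700 transcripts that were more reactive and more even the median was 0.167%, and 99.3% of them lay at or under 10%. The strongest position in control need not be the strongest in knockdown, so this share is a comparison of sizes and not the contribution of a known nucleotide.

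A bound that needs no such match leads to the same reading. No position can increase by more than the knockdown maximum, so the summed increase divided by that maximum is the smallest number of positions that must have been higher. Its median was 22.9 positions, or 1.05% of the positions of the transcript, with a middle 50% of 8.12 to 47.3 positions. More than 1 position was needed in 6030 transcripts, or 95.2%, more than 10 in 4516, or 71.3%, and more than 100 in 428, or 6.76%. Among the more reactive and more even transcripts the same shares were 98.4%, 89.2% and 20.1%, and the median was 49.9 positions, or 5.30% of the positions. The smallest number needed was thus lower in the 6336, although these transcripts had more positions. The increase of their average was also smaller, with a median of 0.036 against 0.118. The smallest number scales with that increase, so it does not by itself show a more concentrated increase. The Gini index is part of the rule, so the lower number is a description. The true number can be far larger, since most positions lie well under the maximum. In the few remaining transcripts this bound requires no more than 1 position. The bound uses the net increase, so more positions can be needed where others were lower.

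A further way to read the same summaries is by the strength of the positions that hold the reactivity. The sum of squared reactivities divided by the sum of reactivities is a mean in which each position counts by its own reactivity. Its median was 0.968 in control cells and 1.37 after knockdown for the 6336 transcripts, against 0.937 and 1.08 for all transcripts below the ceiling. For the transcripts that were more reactive and more even it was 0.812 and 0.973, and for those less reactive and more uneven 1.18 and 1.21. An average and a standard deviation also set the fewest positions over which the reactivity can have been spread, as a share of all positions. The median of this share was 19.0% for control and 16.3% for knockdown. It was lower in knockdown in the same 96.4% of transcripts, since it is computed from the coefficient of variation. The weighted mean, too, follows from the average and the coefficient of variation, so its higher value in the 6336 was set by their selection, and a profile multiplied by a single factor above 1 would raise it as well. As a number of positions, the median of the share was 413 in control cells and 358 after knockdown.

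Some transcripts must also hold positions that were less reactive in knockdown. An increase at a position can add only so much to the sum of squares, given the maxima. In 945 of the 6336 transcripts, or 14.9%, the squares grew by more than the net increase of reactivity could supply, so other positions must have been lower. None of the 11700 more reactive and more even transcripts met this condition, and it was met by 5.24% of all 18036 with a higher average. It rests on the growth of the standard deviation, which the rule favours. Transcripts with a lower average hold lower positions in any case. The reactivity lost at those positions was at least 1.84% of the control sum in the median of these 945. Their average differed little, with a median log2 ratio of 0.05, and their Gini difference was larger than that of the 6336 as a whole, with a median of 0.027. In the other transcripts the summaries do not require any lower position.

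**Figure D4:**
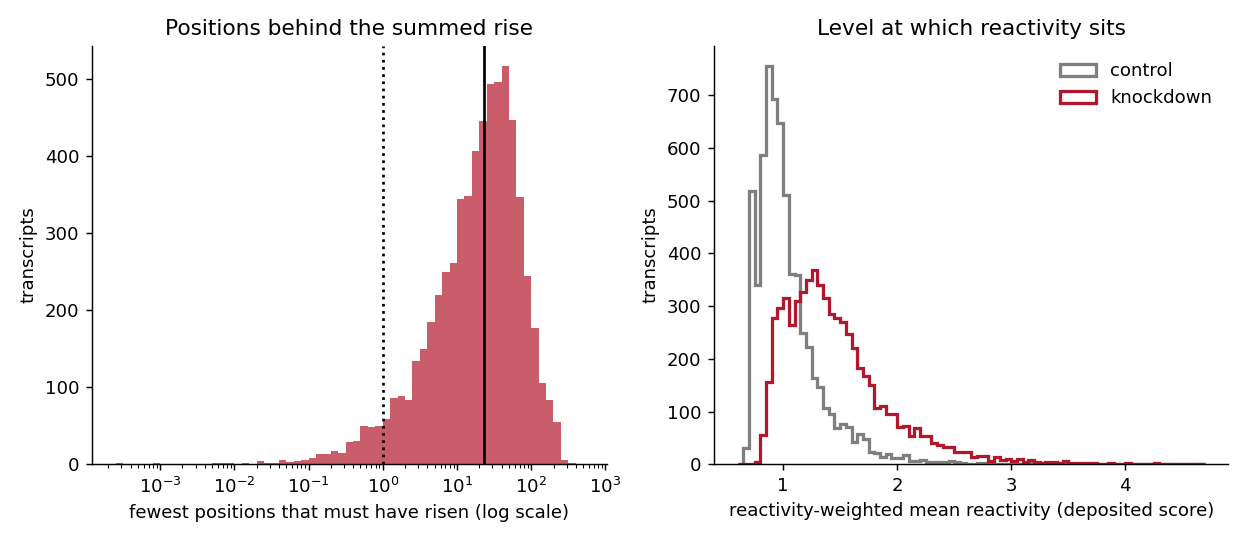
Left, the smallest number of positions that must have been higher in knockdown to give the summed increase, on a log axis, with the median of 22.9 as a solid line and 1 position as a dotted line. Right, the reactivity-weighted mean reactivity of the same 6336 transcripts in control (grey, median 0.968) and knockdown (red, median 1.37), on the deposited score.

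By recovered positions, used here in place of length, the more reactive and more uneven transcripts were long. Their median of 2300 positions compares with 905 for all transcripts below the ceiling, 887 for those more reactive and more even, 786 for those less reactive and more uneven and 428 for those less reactive and more even. Positions were not part of the rule, and transcript length itself was not analysed here. Of the 6336, 3520 or 55.6% had 2000 positions or more, against 26.2% of all transcripts below the ceiling. The share that met the rule was 1.77% of transcripts of under 100 positions, 13.3% of those of 500 to under 1000 and 14.5% of those of 1000 to under 2000. It was 36.7% of those of 2000 to under 5000 (2580 of 7036 transcripts) and 56.2% of those of 5000 or more (940 of 1672). Both parts of the rule were met more often in the longest class, where the average was higher in 67.9% and the Gini index in 88.2% of transcripts. Isoforms of a gene share sequence, so transcripts are not independent, and no test was made across them.

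Among the 6336, the differences were smaller in the shortest transcripts and alike in size from 500 positions up. The median log2 ratio of the average was 0.09 in the 22 transcripts of under 100 positions, 0.16 in the 26 of 100 to under 200 and 0.15 in the 370 of 200 to under 500. It was 0.25 at 500 to under 1000 positions, 0.27 at 1000 to under 2000, 0.28 at 2000 to under 5000 and 0.23 at 5000 or more. The median log2 ratio of the maximum was 0.21, 0.13 and 0.27 in the 3 shortest classes and 0.33, 0.34, 0.39 and 0.40 in the 4 longer ones. Under 100 positions the maximum was higher in 77.3%, against 28.1% of all such transcripts below the ceiling. The same shares were 94.1% against 81.4% at 2000 to under 5000 positions and 94.1% against 86.1% at 5000 or more. The median Gini difference was 0.016, 0.0081 and 0.015 in the shortest classes and 0.018, 0.018, 0.020 and 0.019 in the longer ones. The difference between the maxima was 15.9% of the summed increase in the 22 transcripts of under 100 positions, 1.92% at 500 to under 1000 positions and 0.504% at 5000 or more. The smallest number of positions that must have been higher was 8.98 at 500 to under 1000 positions and 45.3 at 5000 or more.

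The control average divided these transcripts in an uneven way. The share that met the rule was 12.1% of transcripts with a control average under 0.14, 22.4% from 0.14 to 0.18 and 25.1% from 0.18 to 0.22. It was lower from 0.22 to 0.26, at 13.3%, and from 0.26 to 0.30, at 9.07%. It was higher again above that, at 18.7% from 0.30 to 0.34, 33.2% from 0.34 to 0.38 and 39.7% above 0.38 (98 of 247 transcripts). The control average is part of the rule, so these shares are a description. At low control averages the average was seldom higher in knockdown, in 15.6% of transcripts under 0.14, while the Gini index was higher in 92.5%. From 0.26 to 0.30 the average was higher in 86.4% and the Gini index in 21.6%.

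**Figure D5:**
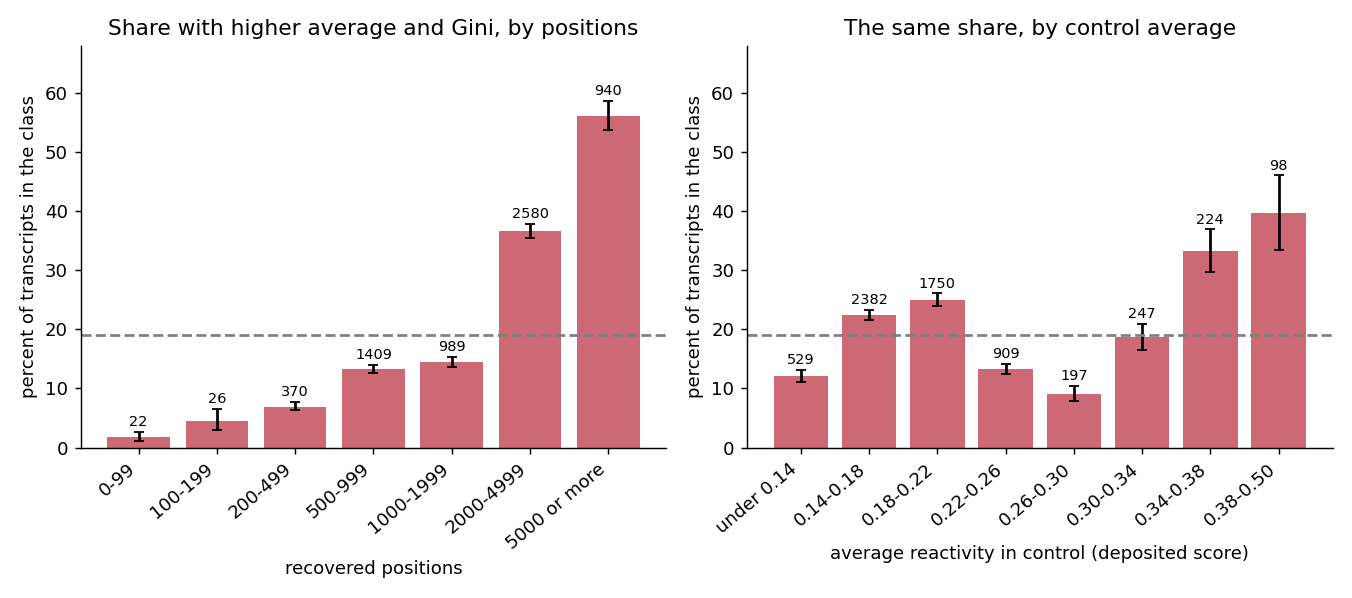
Percent of transcripts below the ceiling that had a higher average and a higher Gini index in knockdown, by recovered positions (left) and by control average on the deposited score (right). Bars are shares with 95% Clopper-Pearson intervals for the counting of transcripts, numbers above them count the transcripts that met the rule, and the dashed line is the 19.1% of all 33235.

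Length and level were read together in classes of both. From 2000 to under 5000 positions, 54.2% of transcripts with a control average of 0.16 to 0.20 met the rule, 21.7% of those from 0.24 to 0.30 and 46.6% of those above 0.30. From 500 to under 1000 positions the same shares were 19.2%, 9.59% and 19.9%. From 1000 to under 2000 positions they were 24.5%, 5.50% and 16.4%. The dip between the levels was present in these 3 length classes. It was absent at the same levels under 500 positions, where the shares were 5.95%, 6.61% and 14.4%. At 5000 positions or more the shares were 68.5%, 60.3% and 70.0%, also with a dip, the middle of 68 and the last of 30 transcripts.

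The 569 transcripts with a control average above 0.30 were more evenly reactive already in control. Their median Gini index was 0.570 in control cells and 0.585 after knockdown, against 0.824 and 0.849 for the 6336 as a whole. This goes with the cut, since control average and control Gini index ran opposite across the 6336 (Spearman's rho -0.98). The average of the 569 had the larger increase, from a median of 0.344 to 0.459, a median log2 ratio of 0.41. The standard deviation went from 0.360 to 0.498 and the maximum from 1.63 to 2.18, median log2 ratios of 0.47 and 0.40. These 3 ratios lay closer together than in the 6336 as a whole. The median Gini difference of the 569 was nearly the same, however, at 0.018 against 0.019. A profile multiplied by a single factor would show no Gini difference. The maximum was higher in 565 of the 569, or 99.3%, where 89.9% of all 2245 transcripts with such a control average had a higher maximum. A median of at least 83.4 positions must have been higher, 5.04% of all positions of the transcript.

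Single transcripts show both ends of the pattern. The largest ratio of the average, among 5545 of the 6336 with at least 500 positions and outside the lowest 25% of all transcripts by level, was that of ENST00000590729.5. Its average was 0.297 in control cells and 0.615 after knockdown, 2.07-fold higher, and its standard deviation was 0.363 and 0.754, 2.08-fold higher. Its maximum was 2.23 and 3.73, 1.67-fold higher, and its Gini index 0.634 and 0.641 over 2606 positions. This is close to a profile multiplied by a single factor with a peak that lagged behind, and at least 222 positions must have been higher. The 8 transcripts with the largest ratios of the average had Gini differences of 0.00097 to 0.034 and ratios of the maximum of 1.65 to 1.87. Their control averages, 0.255 to 0.362, lay above the median of the 6336. Those ranked 1 to 4 had similar values, with averages of 0.292 to 0.302 in control and 0.590 to 0.615 in knockdown over 2606 to 3072 positions. Whether these are isoforms of a gene was not analysed here.

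The largest Gini difference belonged to a transcript whose average hardly differed. ENST00000472476.5 had an average of 0.208 in control cells and 0.214 after knockdown, a Gini index of 0.740 and 0.878, a standard deviation of 0.346 and 0.540 and a maximum of 1.70 and 3.11 over 981 positions. Reactivity of at least 14.8% of its control sum must have been lost at some positions and gained at others. The 8 transcripts with the largest Gini differences, 0.093 to 0.138, had ratios of the average of 1.00 to 1.40 and ratios of the maximum of 1.47 to 2.02. None of the 8 was among the 8 with the largest ratios of the average. A pair of them had nearly the same values, with averages of 0.251 and 0.249 in control and 0.352 and 0.350 in knockdown over 5837 and 5891 positions. Whether the pair are isoforms of a gene was not analysed here.

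The largest increase of the maximum was from 1.91 in control to 6.99 in knockdown, 3.66-fold, in a transcript of 1250 positions whose average was 0.209 and 0.298. The difference between its maxima was 4.55% of its summed increase, and at least 16 positions must have been higher. The 5 transcripts with the largest increases of the maximum had control maxima of 1.91 to 2.24 and knockdown maxima of 6.60 to 6.99, just under the ceiling. The rule admits no maximum of 7 or more, which limits how large an increase the set can hold. The difference between their maxima was 4.55% to 15.2% of the summed increase.

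The opposite case was ENST00000513488.2, with the largest decrease of the maximum. Its strongest position had a score of 3.53 in control, while no position exceeded 1.89 in knockdown. Its average was 0.231 and 0.235, its standard deviation 0.418 and 0.426 and its Gini index 0.772 and 0.787 over 566 positions. ENST00000552657.1 had a maximum of 5.27 in control cells and 3.93 after knockdown, with an average of 0.139 and 0.172 and a Gini index of 0.931 in both. In the 5 transcripts with the largest decreases of the maximum the ratio of the average was 1.02 to 1.24.

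Few transcripts lay within 0.001 of the limits on the average and the Gini index. That margin is small beside the median differences of the 6336, 0.036 for the average and 0.019 for the Gini index. The average was higher by less than 0.001 in 112 of the 6336, and 121 transcripts with a higher Gini index fell short by less than that. The closest inside had averages that both round to 0.176 with Gini indices of 0.840 and 0.861, and the closest outside had a difference of the average of -6.93e-06 with Gini indices of 0.924 and 0.931. The Gini index was higher by less than 0.001 in 153, and 130 transcripts with a higher average fell short by less than that. The closest inside had Gini indices that both round to 0.754 with averages of 0.240 and 0.327, and the closest outside Gini indices that both round to 0.909 with averages of 0.141 and 0.180. The highest maximum inside was 6.999, in knockdown, and 274 transcripts had a maximum above 6 in either condition.

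The limit on the maximum left out 792 transcripts that met the rule otherwise. Of these, 597 were at the ceiling in knockdown only, 190 in both conditions and 5 in control only. The 597 had a median average of 0.173 in control cells and 0.199 after knockdown, a Gini index of 0.881 and 0.917 and a standard deviation of 0.454 and 0.665 over a median of 3777 positions. The set therefore holds fewer transcripts with very high peaks in knockdown than the rule on average and Gini index alone would give. With them included the maximum was higher in 90.4% of 7128 transcripts, where equal values at the ceiling count as not higher.

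The size of the increases rests on the unstated scale of the deposited scores. With all knockdown scores multiplied by 0.9, 4669 transcripts met the rule, with a median log2 ratio of the average of 0.17. A margin of 10% on the average and 0.01 on the Gini index left 3689 transcripts.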

How the data were processed

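For control and for knockdown the authors deposited a table with a row per transcript. Per the file headers, its columns are the maximum, average and standard deviation of reactivity, which are scores of unstated scale, and the Gini index, which is a fraction. Bowtie2 2.3.3.1, cutadapt 1.15 and the build hg38 are named in the submitters' processing notes. For the scaling of reactivities, the annotation and any coverage filter the sources used here give nothing. The column names carry the word combined, read here as both replicates together with DMSO as background, and the knockdown columns a prefix, kd1, that the labels leave unexplained. Neither table has values per library.

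The 2 tables were joined on the transcript, and values were used as deposited. Positions are the smallest number for which the average and the Gini index give whole thousandths in both tables. They were found for all 6336 transcripts, and can be a divisor of the true number. The smallest number of higher positions and the summed increase scale with them, while shares of positions do not. With a divisor, the difference of the maxima as a share of the summed increase would come out too large. The recovery and the bounds were tested on simulated data. The members, the lists and the tests were chosen with earlier results of these data known. Named transcripts were, from transcripts of 500 positions or more above the lowest 25% of levels, the 8 with the largest log2 ratio of the average and the 8 with the largest rise of the Gini index, the 5 with the largest rise and the 5 with the largest fall of the maximum, and the 5 with the largest rise of the standard deviation. Identical transcripts counted once. At most 2 identifiers per direction are printed. Gene lists and sequence features were not analysed here. No p-value was computed, as each condition has a single combined value. The computation used pandas 2.3.3, numba 0.67.0, numpy 2.4.6, scipy 1.17.1 and matplotlib 3.10.9 under Python 3.11.15.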

Additional observations from a re-analysis of the deposited data

How the results depend on the processing

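No paired analysis was possible because there is a single value per transcript for each condition, read as both replicates together, so leaving out a replicate was not run either. A single transcript per gene, the gene lists and the sequence features were not run, since identifiers were not paired with genes here. Depth is unknown, so its effect on the Gini index and the maximum was not tested. Every alternative kept a rule that requires a higher average, so that direction could not reverse and was not tested. The median log2 ratio of the maximum stayed positive throughout. With knockdown scores multiplied by 0.9, 73.7% of the transcripts described here still met the rule. In the others the average was no longer higher. Division of each measure by its median reversed an order: the median log2 ratio was 0.28 for the average and 0.12 for the standard deviation. Multiplication of the knockdown scores by 0.9 or 1.1 and the coefficient of variation in place of the Gini index were chosen after seeing the data. Counting identical transcripts once left 6323 transcripts and moved none of the 9 values beyond their intervals.

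A margin of 10% on the average and 0.01 on the Gini index reduced the 6336 transcripts to 3689. There the maximum was higher in 97.7% and the standard deviation in 100%, the median log2 ratios were 0.31 for the average, 0.46 for the standard deviation and 0.47 for the maximum, the Gini difference was 0.0245, and the median was 2586 positions. Division of each measure by its median in each condition, which multiplied the knockdown average by 1.03, the standard deviation by 0.845 and the maximum by 0.895, gave 6882 transcripts. The maximum was then higher in 76.0% and the standard deviation in 71.7%, with log2 ratios of 0.28, 0.12 and 0.18, 2211.5 positions, and a difference of the maxima of 0.316% of the summed increase. No single scale can give 3 such factors, so these values describe that division and not another scale of the scores.

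With knockdown scores multiplied by 0.9, 4669 transcripts had a higher maximum in 87.3%, log2 ratios of 0.17, 0.29 and 0.28, a Gini difference of 0.0195, 2480 positions and a share of 0.866%. With a factor of 1.1, 8865 transcripts had a higher maximum in 94.7% and a higher standard deviation in 99.97%, log2 ratios of 0.31, 0.43 and 0.42, 1963 positions and a share of 1.02%. With transcripts at the ceiling kept, 7128 transcripts had a higher maximum in 90.4%, log2 ratios of 0.25 for the average and 0.39 for the standard deviation, a Gini difference of 0.0196, 2421 positions and a share of 0.871%. With at least 1000 positions, the maximum was higher in 93.3%, the log2 ratios were 0.26, 0.40 and 0.39, the Gini difference was 0.0196, the median 3122 positions and the share 0.628%. Without the lowest 25% by level the log2 ratios were 0.27, 0.40 and 0.37 and the Gini difference 0.0199. A pseudocount of 0.01 gave log2 ratios of 0.24 for the average and 0.38 for the standard deviation. The coefficient of variation in place of the Gini index gave 6222 transcripts, 6106 of them shared, with a higher maximum in 93.3%, a higher standard deviation in 100%, a log2 ratio of the maximum of 0.37 and a share of 0.866%.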
